A study of Mus musculus with 22 samples.

Results

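RNA-seq of whole mouse spinal cord was used to follow 9 genes of the complement system: the C1q chain genes C1qa, C1qb and C1qc, the C1 protease gene C1ra, the central components C3 and C4b, the anaphylatoxin receptor genes C3ar1 and C5ar1, and the C1 inhibitor gene Serping1. They were chosen by name and function, with earlier results of these data known. All 9 are among the 21995 genes of the count table. For aging, young wild-type males of 3–4 months (n = 8) were compared with old wild-type males of 18–24 months (n = 8). For ALS, SOD1-G93A mice (n = 3), which carry a high-copy human SOD1 transgene with the G93A mutation, were compared with wild-type control mice (n = 3), both at 5–6 months by the labels. Each group of the ALS experiment held females and a male. All mice were on the C57BL/6 background, and each library came from the spinal cord of 1 mouse. The aging libraries were made with the Roche KAPA HyperPrep kit and the ALS libraries with Illumina TruSeq, so each comparison lay within 1 kit.

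Complement is a set of proteins that tag cells, debris and synapses for removal. C1q, built from the products of C1qa, C1qb and C1qc, recognises its target and activates the proteases C1r and C1s, which cleave C4 and C2 and so lead to the cleavage of C3. Fragments of C3 are read by integrin receptors on phagocytes, and the small fragments C3a and C5a act on C3aR and C5aR1. The C1 inhibitor, encoded by Serping1, blocks C1r and C1s. In the central nervous system C1q is made mostly by microglia, and C3 and C4 are also made by reactive astrocytes.

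The young libraries held between 5078092 and 9358055 counts, the old libraries between 5664869 and 9145600, the control libraries between 10693060 and 13219797, and the SOD1-G93A libraries between 9675610 and 11872431. Taking 3 counts as the least that can be told from 0 at this depth, the floor lay between 0.320 and 0.582 CPM (counts scaled to a common library size after TMM normalization) in the aging experiment and between 0.231 and 0.302 CPM in the ALS experiment. These floors cover counting error only. The summed CPM of 9 spinal cord markers was between 490 and 760 in the aging libraries, between 651 and 684 in control and between 452 and 534 in SOD1-G93A libraries, where 2 of the 9 were called lower. That of 5 forebrain markers was between 2.97 and 9.10 in all libraries. Mouse Sod1 was between 156 and 168 CPM in control and between 296 and 335 CPM in SOD1-G93A libraries. The human transgene has no row of its own in the table, and whether its reads were counted on mouse Sod1 was not tested. Libraries are numbered here by their order in the count table, which is not a replicate number. Old library 6 stood apart, with 15.1% of its counts on its 10 most abundant genes against between 8.01% and 11.9% in the other old libraries. It also had the highest spinal cord and forebrain sums, 760 and 9.10, with the next old libraries at 699.8 and 4.81. Old library 5 and SOD1-G93A library 1 had a summed CPM of 4 Schwann cell markers of 58.5 and 109, against at most 4.55 in the other old, 11.7 in the young and 3.99 in the other ALS libraries. The log2 fold changes of the members are therefore also given below without these libraries.

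The C1q genes lie next to each other on the minus strand of chromosome 4, within 18675 bp (136880129–136898803, GRCm38). C1ra and C3ar1 are on chromosome 6, C3 and C4b on chromosome 17, C5ar1 on chromosome 7 and Serping1 on chromosome 2. Because the members rose in both comparisons, the 250 bases before the start annotated by RefSeq were read for them. This sequence was found for 6 of the 9, namely C1qb, C1qc, C1ra, C3, C3ar1 and C5ar1. Those that held a searched motif are shown 5′ to 3′ on the strand of the gene (GRCm38.p6, minus strand in each case) with the matching letters in capitals, at chr4:136886201-136886450 for C1qb, chr4:136892915-136893164 for C1qc, chr17:57228137-57228386 for C3 and chr6:122856158-122856407 for C3ar1.
C1qb: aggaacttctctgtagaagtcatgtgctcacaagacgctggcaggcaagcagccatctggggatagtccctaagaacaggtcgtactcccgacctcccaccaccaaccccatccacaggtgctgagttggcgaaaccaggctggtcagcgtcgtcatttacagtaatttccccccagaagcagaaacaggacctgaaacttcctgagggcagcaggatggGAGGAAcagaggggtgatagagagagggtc
C1qc: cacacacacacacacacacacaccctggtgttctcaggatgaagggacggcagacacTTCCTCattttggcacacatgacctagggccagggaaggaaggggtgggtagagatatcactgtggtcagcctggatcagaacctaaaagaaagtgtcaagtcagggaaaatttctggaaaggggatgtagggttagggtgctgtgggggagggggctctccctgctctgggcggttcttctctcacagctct
C3: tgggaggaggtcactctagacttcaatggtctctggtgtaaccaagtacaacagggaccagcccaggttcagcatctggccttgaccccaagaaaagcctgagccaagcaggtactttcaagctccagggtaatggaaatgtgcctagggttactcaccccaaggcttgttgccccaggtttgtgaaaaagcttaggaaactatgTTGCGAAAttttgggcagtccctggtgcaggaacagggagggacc
C3ar1: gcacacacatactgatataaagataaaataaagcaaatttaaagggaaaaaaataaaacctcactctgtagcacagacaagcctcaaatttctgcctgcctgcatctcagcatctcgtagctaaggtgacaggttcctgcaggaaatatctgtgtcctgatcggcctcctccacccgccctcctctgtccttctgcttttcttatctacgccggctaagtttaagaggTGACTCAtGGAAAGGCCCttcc

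Both strands were searched for 6 motifs. The core GAGGAA bound by PU.1, a factor of the myeloid lineage, was found in C1qb from -30 to -25 and, as its reverse complement, in C1qc from -193 to -188, counted back from the start. It is in 23.3% of all 32851 promoters of the same length. The C/EBP motif TTGCNNAA was found in C3 from -45 to -38 and is in 9.6% of promoters. C3ar1 held the AP-1 motif TGANTCA from -22 to -16, present in 6.7% of promoters, and the reverse complement of the NF-kB motif from -14 to -5, present in 4.1%. These matches did not overlap each other. The STAT motif TTCNNNGAA (7.0% of promoters) and the interferon response element (3.0%) were in none of the 6 windows. C1ra and C5ar1 held none of the 6 motifs in their windows, chr6:124512371-124512620 and chr7:16259339-16259588. Positions count from the RefSeq start, and GENCODE starts some genes at other bases. These are 124512405 for C1ra (plus strand), and 16259540 for C5ar1, 136893065 for C1qc, 122856161 for C3ar1 and 136886187 for C1qb (all minus strand). The windows of C1ra, C5ar1, C1qc and C3ar1 thus lie partly inside the GENCODE gene. That of C1qb lies before the GENCODE start but does not adjoin it. Only the C3 window adjoins its GENCODE start, 57228136. A match describes letters and not binding.

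The first question was whether complement RNA differs between young and old spinal cord. All 9 members were higher in old than in young mice with an adjusted p under 0.05 and a log2 fold change over 1 (edgeR's quasi-likelihood test with Benjamini-Hochberg adjustment over 13647 genes). Of all genes tested, 2.18% were called higher in this way and 0.044% lower. Every old mouse was above every young mouse for 9 of 9 members, which held for 3.66% of all genes tested. The median log2 fold change of the members was 2.01, against -0.00 over all genes tested. The summed CPM of the 9 members ran from 308 to 339 in young mice, with a median of 325, and from 634 to 1419 in old mice, with a median of 1223. In whole tissue, more cells of a type and more RNA per cell cannot be told apart.

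Among the C1q chains, C1qa was between 33.1 and 39.8 CPM in young mice with a median of 36.7, and between 87.0 and 201 CPM in old mice with a median of 155. The ranges were well apart, and the log2 fold change was 2.09 ± 0.11 (SE; edgeR adjusted p = 5.21e-12), or 4.27-fold. C1qb was between 30.1 and 43.0 CPM in young mice (median 35.5) and between 89.2 and 145 CPM in old mice (median 130), a log2 fold change of 1.85 ± 0.09 (SE; edgeR adjusted p = 9.81e-13). C1qc was between 29.2 and 34.3 CPM in young mice (median 31.3) and between 65.7 and 136 CPM in old mice (median 121), a log2 fold change of 1.89 ± 0.10 (SE; edgeR adjusted p = 9.02e-12). All 3 chains rose by a similar amount. The coefficient of variation of CPM was 21.9% in old and 5.89% in young mice for C1qa, 14.3% and 12.8% for C1qb, and 19.6% and 6.34% for C1qc. Without old library 6 the old values were 13% for C1qa, 7.70% for C1qb and 8.90% for C1qc. The coefficient was higher in old mice for 7 of the 9 members with this library and for 5 without it, and it was lower for the scarce C1ra and C5ar1 either way.

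C1ra encodes the protease that C1q activates first, and it was the scarcest member in young mice, with 0 to 15 counts a library. It was between 0 and 1.85 CPM in young mice (median 0.579) and between 2.16 and 3.77 CPM in old mice (median 2.91). The young range reached below the floor of 3 counts and the old range did not. The log2 fold change was 2.02 ± 0.33 (SE; edgeR adjusted p = 6.87e-05). Of the 50-base stretches of C1ra transcripts, 50.8% are also in another gene, C1rb among them, so how its reads were shared out is uncertain. C1rb itself had 0 counts in every old library and at most 2 in a young library. Over 6 alternatives with all libraries, adding C1rb counts among them, the log2 fold change of C1ra was between 0.65 and 2.03.

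The central components C3 and C4b are the substrates that the classical pathway cleaves. C3 was between 89.1 and 112 CPM in young mice (median 101) and between 136 and 324 CPM in old mice (median 264), a log2 fold change of 1.31 ± 0.12 (SE; edgeR adjusted p = 2.32e-08). C4b was between 87.3 and 130 CPM in young mice (median 112) and between 233 and 609 CPM in old mice (median 488), a log2 fold change of 2.09 ± 0.13 (SE; edgeR adjusted p = 2.91e-11). Both genes had much the same CPM in young mice, though CPM does not allow for the length of a gene. For each gene the old range lay above the young range. Of the 50-base stretches of C4b transcripts, 34.6% are also in its neighbour C4a, which was not analysed here, so C4b counts may include reads from both. The ratio of C4b to C3 in FPKM (fragments per length of transcript and per size of library) was between 0.460 and 1.44 in young mice and between 1.11 and 2.08 in old mice. These ranges overlapped.

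C3ar1 and C5ar1 encode the receptors of C3a and C5a. C3ar1 was between 2.33 and 3.53 CPM in young mice (median 3.04) and between 11.4 and 20.8 CPM in old mice (median 17.9). Its log2 fold change of 2.5 ± 0.14 (SE; edgeR adjusted p = 1.20e-11), or 5.67-fold, was the highest of the 9 members. C5ar1 was between 0.260 and 1.59 CPM in young mice (median 0.618) and between 1.81 and 5.42 CPM in old mice (median 2.85), with 2 to 14 counts a young library. Its log2 fold change was 2.01 ± 0.29 (SE; edgeR adjusted p = 1.71e-05). Serping1, the inhibitor of C1r and C1s, was between 3.96 and 5.93 CPM in young mice (median 5.03) and between 6.79 and 16.2 CPM in old mice (median 13.1). Its log2 fold change of 1.31 ± 0.14 (SE; edgeR adjusted p = 3.10e-07) was the smallest after that of C3. On the deposited log2(FPKM + 1) scale, where a pseudocount of 1 shrinks the change of low genes, limma gave log2 differences of 0.65 for C1ra, 0.80 for C5ar1 and 1.5 for C3ar1. The first 2 are below the threshold of 1, and all 3 still had an adjusted p under 0.05.

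**Figure D1:**
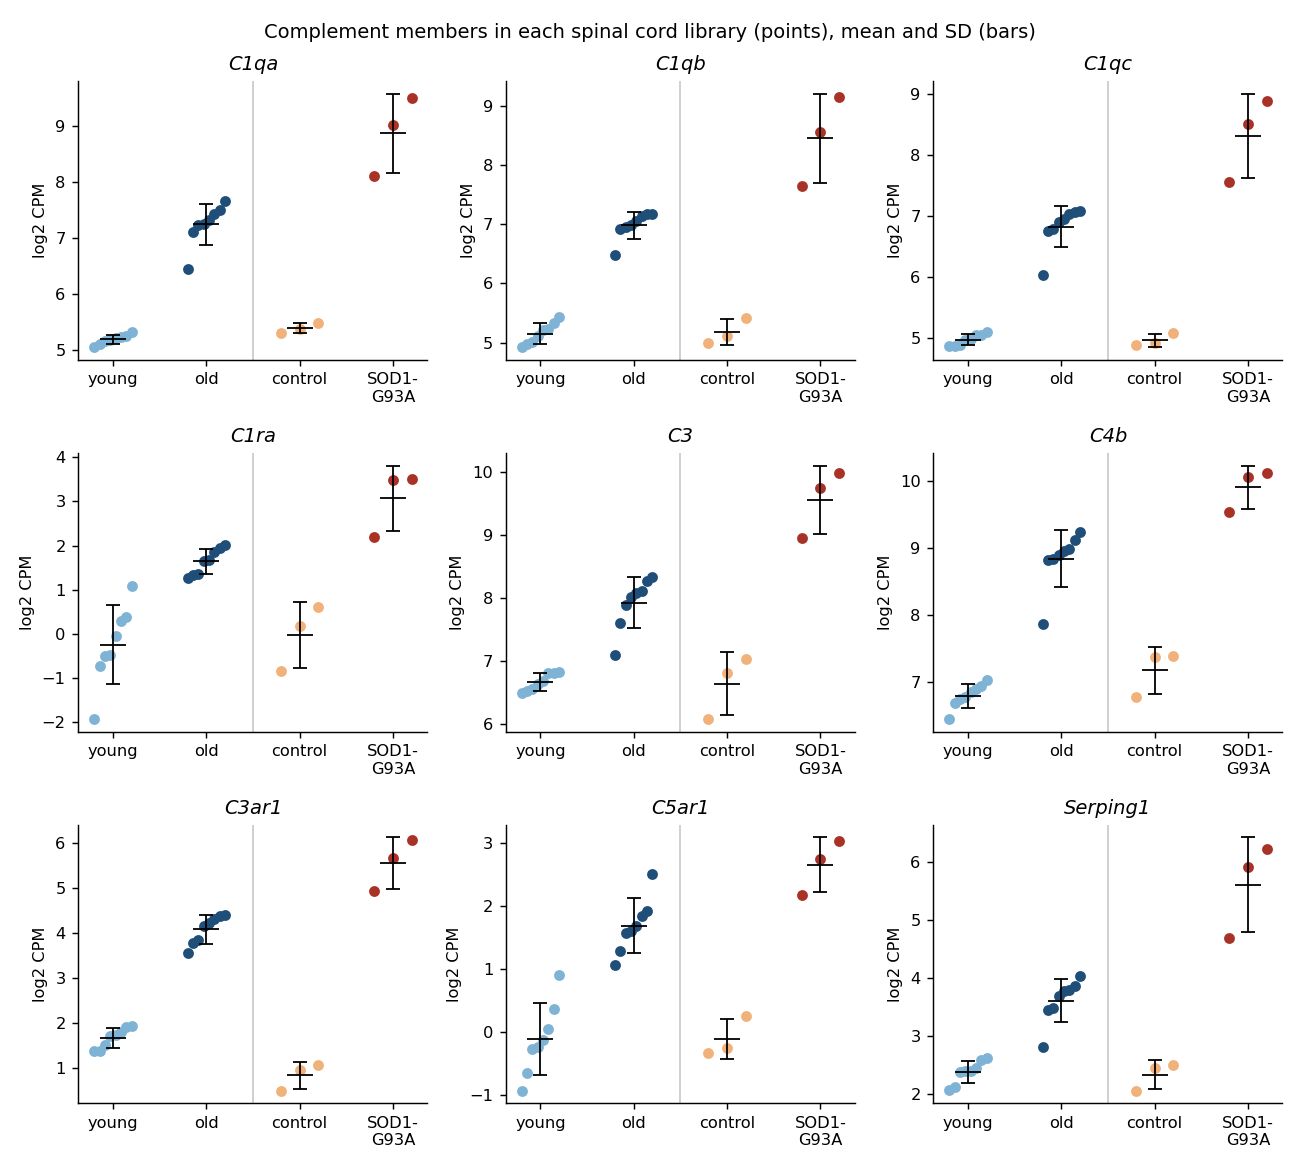
Expression of the 9 members in each library, as log2 CPM with a prior count of 2, for young, old, control and SOD1-G93A mice. Points are libraries, sorted by value within a group, and bars give the mean and SD. The old points lie above the young points and the SOD1-G93A points above the control points in each panel, and 1 old library lies below the other old libraries for the C1q genes, C3, C4b and Serping1.

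Old library 6 had the lowest value of the old mice for 8 of the 9 members, the exception being C5ar1. It also had the lowest summed CPM of 10 microglial markers among the old mice, 488, and the highest summed CPM of 7 neuronal markers, 6528. Their part in the result was not tested. Without this library the log2 fold changes were 2.18 for C1qa, 1.91 for C1qb, 1.98 for C1qc, 2.07 for C1ra, 1.40 for C3, 2.19 for C4b, 2.56 for C3ar1, 2.01 for C5ar1 and 1.39 for Serping1. Without old library 5, the library with Schwann cell markers, they ran from 1.24 for Serping1 to 2.53 for C3ar1. All 9 members were still called in both fits.

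The second question was how the same genes stand in SOD1-G93A spinal cord. All 9 members were higher in SOD1-G93A than in control mice past both thresholds, where 8.5% of the 14386 genes tested were and 1.2% were lower. Every SOD1-G93A library was above every control library for 9 of 9 members. With 3 libraries a group this held for 25.7% of all genes tested. The median log2 fold change of the members was 3.40, against 0.00 over all genes tested. The summed CPM of the 9 members was between 292 and 428 in control libraries and between 1968 and 4061 in SOD1-G93A libraries.

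C1qa stood at 44.7, 41.5 and 39.5 CPM in the control libraries and at 718, 276 and 514 CPM in the SOD1-G93A libraries, given in library order here and below. The lowest SOD1-G93A library was thus several-fold above the highest control. The log2 fold change was 3.59 ± 0.31 (SE; edgeR adjusted p = 0.000182), or 12-fold. C1qb stood at 42.7, 34.4 and 31.8 CPM in control and at 567, 201 and 380 CPM in SOD1-G93A libraries, a log2 fold change of 3.40 ± 0.34 (SE; edgeR adjusted p = 0.000282). C1qc stood at 34.0, 29.5 and 30.1 CPM in control and at 474, 188 and 362 CPM in SOD1-G93A libraries, a log2 fold change of 3.45 ± 0.30 (SE; edgeR adjusted p = 0.000185). All 3 chains had the same order over the SOD1-G93A libraries, with library 1 highest and library 2 lowest.

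C1ra stood at 0.949, 1.35 and 0.384 CPM in control and at 11, 4.43 and 11.2 CPM in SOD1-G93A libraries. Its counts were 5 to 16 a control library and 44 to 130 a SOD1-G93A library, and the log2 fold change was 3.32 ± 0.48 (SE; edgeR adjusted p = 0.00170). C3 stood at 131, 67.2 and 111 CPM in control and at 1023, 496 and 858 CPM in SOD1-G93A libraries, a log2 fold change of 2.94 ± 0.31 (SE; edgeR adjusted p = 0.000348). C4b, whose product is cleaved before C3, stood at 167, 110 and 166 CPM in control and at 1118, 743 and 1076 CPM in SOD1-G93A libraries. Its log2 fold change of 2.73 ± 0.21 (SE; edgeR adjusted p = 0.000124), or 6.63-fold, was the smallest of the 9, although it had the most CPM.

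The receptor gene C3ar1 stood at 1.90, 1.77 and 1.23 CPM in control and at 66.5, 30.3 and 49.96 CPM in SOD1-G93A libraries. It again had the highest log2 fold change of the members, 4.92 ± 0.34 (SE; edgeR adjusted p = 8.14e-05), or 30.2-fold. C5ar1 stood at 0.664, 1.01 and 0.615 CPM in control and at 7.97, 4.33 and 6.54 CPM in SOD1-G93A libraries, a log2 fold change of 3.03 ± 0.35 (SE; edgeR adjusted p = 0.000530). The C1 inhibitor gene Serping1 stood at 5.50, 5.30 and 4.00 CPM in control and at 75.2, 25.7 and 60.4 CPM in SOD1-G93A libraries, a log2 fold change of 3.46 ± 0.38 (SE; edgeR adjusted p = 0.000451), or 11-fold. On the log2(FPKM + 1) scale limma gave differences of 1.55 for C1ra, 1.45 for C5ar1 and 3.09 for C3ar1, still past both thresholds.

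SOD1-G93A library 2 had the lowest value of its group for 9 of 9 members, and library 1 the highest for 8 of 9, the exception being C1ra. Library 2 also had the highest summed CPM of neuronal markers of its group, 4552, and the lowest of microglial and astrocyte markers, 1008 and 11450. Their part in the result was not tested. Without library 1, which had the Schwann cell markers, the log2 fold changes were 3.24 for C1qa, 3.01 for C1qb, 3.15 for C1qc, 3.15 for C1ra, 2.72 for C3, 2.63 for C4b, 4.63 for C3ar1, 2.82 for C5ar1 and 3.14 for Serping1. Without library 2 they ran from 2.90 for C4b to 5.17 for C3ar1. All 9 members stayed past both thresholds in both fits.

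**Figure D2:**
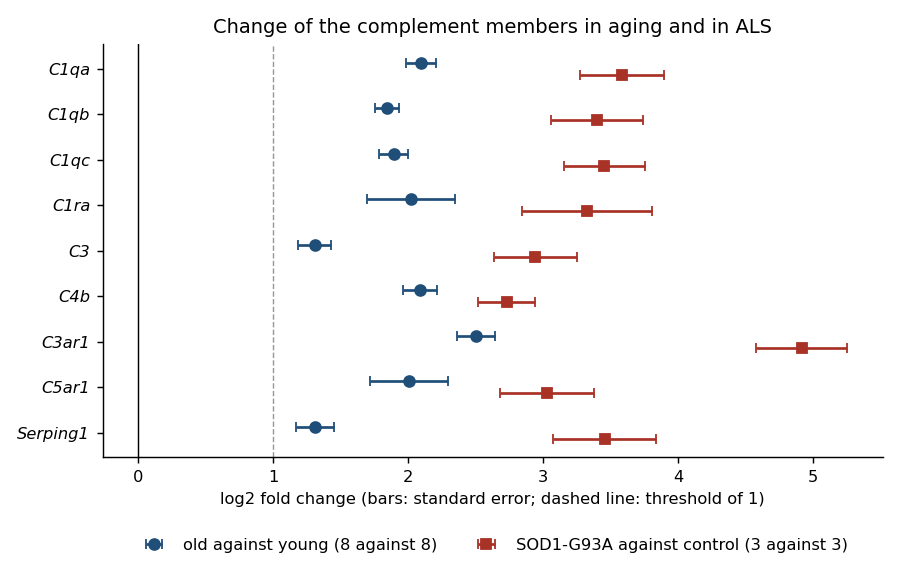
Log2 fold change of each member in old against young mice (circles) and in SOD1-G93A against control mice (squares), from edgeR, with standard errors as bars and the threshold of 1 as a dashed line. The aging values lie between 1.31 and 2.5 and the ALS values between 2.73 and 4.92, with C3ar1 highest in both.

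Whether a member changed by different amounts in the 2 comparisons was tested as an interaction in 1 edgeR fit of all 22 libraries. The log2 fold change was larger in ALS for 6 of the 9 members with an adjusted p under 0.05, where 11.6% of the 14502 genes tested were and 25.8% differed in either direction. The difference was 2.38 ± 0.34 for C3ar1 (SE; edgeR adjusted p = 2.64e-05), 2.12 ± 0.34 for Serping1 (8.82e-05), 1.61 ± 0.29 for C3 (0.000233), 1.54 ± 0.26 for C1qc (0.000149), 1.53 ± 0.27 for C1qb (0.000172) and 1.47 ± 0.27 for C1qa (0.000340). Serping1 and C3, which had the smallest log2 fold changes in aging, were among the members that differed most. The difference subtracts the aging value, so a small aging value enlarges it by construction. For C1ra (1.27 ± 0.63, edgeR adjusted p = 0.143), C5ar1 (0.98 ± 0.52, 0.172) and C4b (0.62 ± 0.25, 0.0756) the difference did not pass the test. This depended on single libraries for 2 of them. Without SOD1-G93A library 2 the difference of C4b was 0.77 (edgeR adjusted p = 0.0216) and that of C1ra 1.57 (0.0457), and without old library 6 that of C4b was 0.56 (0.0227). The kit, age and sex of the mice coincide with the experiment, so their part and that of ALS or aging cannot be told apart in these differences.

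Levels can be compared between genes only per length, and FPKM was therefore computed back from the deposited log2 values. In young mice C1qa had a mean of 34.0 ± 2.10 FPKM (SD, n = 8), followed by C1qb at 31.6, C3 at 26.9, C1qc at 25.2 and C4b at 24.9, and the ranges of neighbours in this order overlapped. Serping1 followed at 2.80 and C3ar1 at 0.644, with no overlap with their upper neighbours. C5ar1 at 0.312 overlapped both C3ar1 and C1ra, the lowest at 0.226. In old mice C1qa was still first, at 145 ± 36.1 FPKM (SD, n = 8), and C4b had moved to second place at 115, level with C1qb at 114. C1qc was at 93.6, C3 at 65.1, Serping1 at 6.83, C3ar1 at 3.71, C5ar1 at 1.3 and C1ra at 0.922. Within each old library C1qa was above C4b and C1qc above C3, although the ranges over mice overlapped.

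In control mice the order was C1qa at 38.7 FPKM, C4b at 34.6, C1qb at 32.0, C1qc at 24.8, C3 at 20.9, Serping1 at 2.73, C3ar1 at 0.353, C5ar1 at 0.287 and C1ra at 0.280. Ranges of neighbours overlapped except between C1qb and C1qc, C3 and Serping1, and Serping1 and C3ar1. In SOD1-G93A mice C1qa led with 479 ± 205 FPKM (SD, n = 3), followed by C1qb at 348, C1qc at 280, C4b at 263, C3 at 182, Serping1 at 30.5, C3ar1 at 11, C1ra at 2.89 and C5ar1 at 2.53. The chains and central components overlapped with their neighbours, and C3, Serping1 and C3ar1 were each apart from the next gene. The ratio of C1qc to C1qa was between 0.567 and 0.784 in all 22 libraries. It was between 0.665 and 0.784 in young, 0.582 and 0.700 in old, 0.613 and 0.659 in control, and 0.567 and 0.608 in SOD1-G93A libraries.

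The other genes of the pathway were taken from a list of 49, of which 48 are in the table and 21 were tested in aging and 25 in ALS. In aging, 4 of the 21 were higher past both thresholds with edgeR, where 2.18% of all genes tested were. With edgeR or DESeq2 0 were lower, where 0.044% of all genes tested were by edgeR. At an unadjusted p under 0.05, 6 were higher and 4 lower, where 18.9% and 18.7% of all genes tested were. At an adjusted p alone, 6 were higher and 3 lower, where 13.5% and 12.9% of all genes tested were. In ALS, 8 of the 25 were higher past both thresholds with edgeR, where 8.5% of all genes tested were. With either tool 0 were lower, where 1.2% of all genes tested were by edgeR. At an unadjusted p under 0.05, 10 were higher and 5 lower, where 23.4% and 21.7% of all genes tested were. At an adjusted p alone 9 were higher and 4 lower, where 18.4% and 15.5% of all genes tested were. The median log2 fold change of these genes was 0.10 in aging and 0.24 in ALS, against 2.01 and 3.40 for the members.

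Of the classical pathway, C1s1, the protease partner of C1r, rose in both, by a log2 fold change of 2.21 ± 0.28 in aging (SE; edgeR adjusted p = 2.52e-06) and 2.78 ± 0.59 in ALS (0.00827). C2, the other substrate of C1s, was tested in ALS alone and did not pass (0.46 ± 0.49, edgeR adjusted p = 0.502). Of the lectin pathway, 0 of 2 tested genes passed edgeR's test in aging, also at an unadjusted p under 0.05, and 1 of 3 in ALS, the collectin gene Colec12 at 1.78 ± 0.30 (SE; edgeR adjusted p = 0.00349). Of the alternative pathway, Cfp, which encodes properdin, fell by 0.41 in aging (edgeR adjusted p = 0.0253), and neither Cfp nor Cfb passed in ALS. Of the 7 terminal components only C8g had enough counts to be tested, and its log2 fold change of 0.39 in aging and 0.13 in ALS did not pass. Hc, the gene of C5, was not tested in either comparison because of its low counts.

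Among the receptors of C3 fragments are integrins made of a shared chain, Itgb2, with Itgam or Itgax. Itgax had 0 to 7 counts a young library and was between 8.02 and 32.1 CPM in old mice, and between 0.231 and 1.14 CPM in control and 52.6 and 112 CPM in SOD1-G93A libraries. Its log2 fold change was 5.64 ± 0.33 in aging (SE; edgeR adjusted p = 1.70e-11) and 6.92 ± 0.43 in ALS (8.14e-05), above those of all 9 members. Itgb2 rose by 2.23 ± 0.16 in aging (SE; edgeR adjusted p = 5.81e-10) and by 3.35 ± 0.22 in ALS (8.14e-05). Itgam rose by 2.13 ± 0.14 in ALS (SE; edgeR adjusted p = 8.14e-05). In aging Itgam stood just over the threshold, at 1.001 ± 0.07 (SE; edgeR adjusted p = 4.66e-10), and was not called in 14 of 23 alternatives, among them DESeq2 and 9 of the 16 fits with a library left out. On the log2(FPKM + 1) scale Itgam was 0.82 and C1s1 0.72, so that 2 and not 4 of these genes were called in aging. C5ar2, the second C5a receptor gene, was tested in ALS alone and rose by 2.56 ± 0.54 (SE; edgeR adjusted p = 0.00824). It was 0.63 on the log2(FPKM + 1) scale. Of the 7 listed receptor genes other than the members, 4 were tested in aging. At an edgeR adjusted p alone 3 were higher and 1 lower, where 13.5% and 12.9% of all genes tested were. The lower gene was Cd93, with a log2 fold change of -0.26 ± 0.09 (SE; edgeR adjusted p = 0.0354). In ALS 4 of 5 were higher and 0 lower by edgeR, where 18.4% and 15.5% of all genes tested were.

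Of the soluble regulators, Clu, the gene of clusterin, rose by 1.76 ± 0.20 in ALS (SE; edgeR adjusted p = 0.000516). In aging it rose by less than the threshold, by 0.52 ± 0.05 (SE; edgeR adjusted p = 2.32e-08). The change of Clu was larger in ALS by 1.21 ± 0.15 (SE; edgeR adjusted p = 6.58e-06). None of the membrane regulators passed both thresholds in either comparison. In ALS 4 of the 9 tested fell by less than the threshold, and these were Cd55 (by 0.67), Susd4 (by 0.58), Csmd1 (by 0.41) and Csmd2 (by 0.36) on the log2 scale, while Cd59a rose by 0.29. Of all genes tested in ALS, 15.5% were lower and 18.4% higher at an adjusted p alone. The number of the listed genes that were lower was 1 without SOD1-G93A library 3, 2 without control library 1, 1 without control library 2 and 1 on the log2(FPKM + 1) scale. Neuronal markers were lower in the same libraries, between 2713 and 4552 CPM against between 6576 and 6905 CPM in control, and their part in this was not tested. In aging 1 of the 8 membrane regulators tested passed an adjusted p of 0.05, with Csmd2 lower by a log2 fold change of -0.41. This is near the share of all genes tested that were lower in aging, 12.9%.

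**Figure D3:**
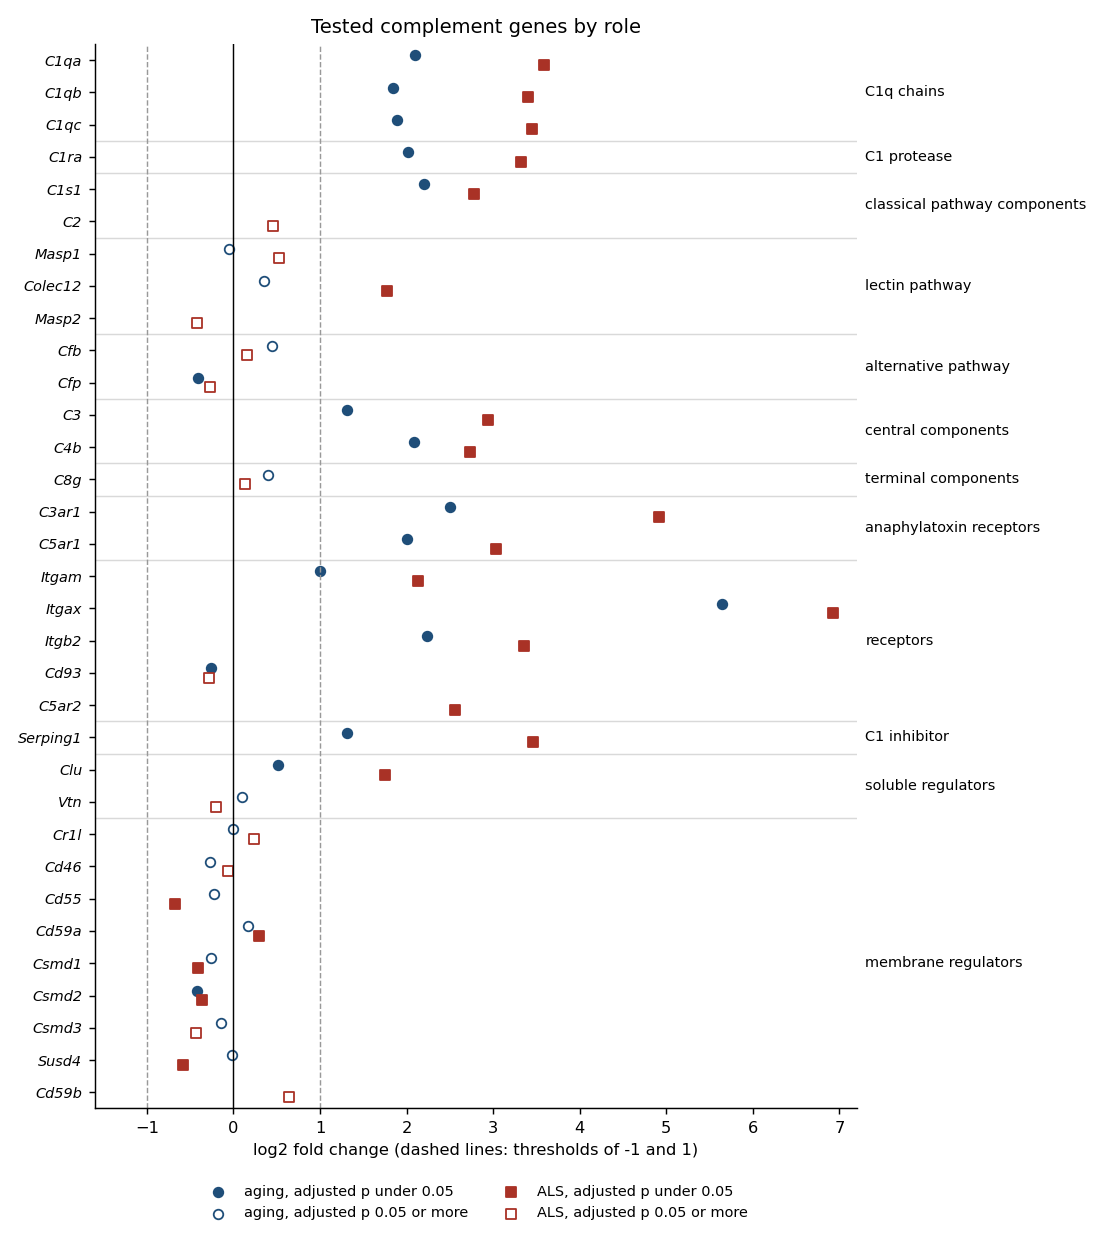
Log2 fold change of tested complement genes, grouped by role, in old against young mice (circles) and SOD1-G93A against control mice (squares). Filled symbols have an edgeR adjusted p under 0.05, and dashed lines mark the thresholds of -1 and 1. The 9 members, C1s1 and the integrin genes Itgax, Itgb2 and Itgam lie to the right of the threshold in both comparisons, with Itgam just over it in aging. The membrane regulators lie between the 2 thresholds.

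Markers of microglia, the main source of C1q, also moved with both comparisons. The summed CPM of 10 microglial markers was between 349 and 391 in young, 488 and 690 in old, 368 and 438 in control, and 1008 and 1508 in SOD1-G93A libraries. At an adjusted p alone, 7 of the 10 were higher in aging, 2 of them past both thresholds. In ALS 6 of the 10 were higher past both thresholds. Of all genes tested, 13.5% were higher and 12.9% lower in aging at an adjusted p alone, and 18.4% and 15.5% in ALS. Past both thresholds 2.18% were higher in aging and 8.5% in ALS. Among the 6 markers of the list taken as homeostatic, which mark resting microglia, 3 were higher in aging, with log2 fold changes between 0.54 and 0.91, and 2 in ALS. P2ry12, Sall1 and Siglech passed the test in neither comparison. The summed CPM of 8 astrocyte markers was between 6169 and 6772 in young and between 7065 and 7748 in old mice, but the list was mixed, with 4 markers higher and 2 lower at an adjusted p under 0.05. Without Gfap, the gene of an astrocyte filament protein, the mean sum was 4718 in young and 4472 in old mice. In ALS the sum was between 5754 and 6269 in control and between 11450 and 18058 in SOD1-G93A libraries, with 7 of the 8 higher and 0 lower by edgeR at an adjusted or unadjusted p under 0.05, and without Gfap the mean sum was 4211 and 5893. The part of astrocytes and neurons in the values of the members was not tested. The summed CPM of 7 monocyte and neutrophil markers was at most 4.49 and that of 8 T and B cell markers at most 2.98 in every library. The T and B cell sum had a median of 1.61 in old (0.816 to 2.98) and 0.794 in young mice (0.194 to 1.32). Within it the T cell markers had higher and the B cell markers lower mean CPM in old mice. All 8 had too few counts to be tested. For 5 border macrophage markers the sum was between 2.46 and 4.67 in old and between 1.94 and 5.12 in young mice, and between 4.83 and 7.202 in SOD1-G93A and 1.77 and 3.70 in control libraries, where 1 of 3 tested markers was called higher. That of 5 meningeal fibroblast markers was between 47.0 and 63.6 in old and between 50.2 and 57.7 in young mice. It was 114, 52.1 and 74.3 in the SOD1-G93A libraries in library order, against between 50.2 and 50.8 in control libraries, with 1 of 5 markers called higher. The part of these cells in the values of the members was not tested.

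To set the members beside the microglial markers, the CPM of each was divided by the geometric mean CPM of the 10 markers in the same library. That mean was 1.56 times as high in old as in young and 2.44 times as high in SOD1-G93A as in control mice. After the division, 5 of 9 members were still higher in every old than in every young mouse. These were C3ar1 (ratio of group means 3.67), C1qa (2.69), C4b (2.69), C1qc (2.34) and C1qb (2.28). The groups overlapped for C5ar1 (2.73), C1ra (2.504), Serping1 (1.57) and C3 (1.56). In ALS all 9 were higher in every SOD1-G93A than in every control library, with ratios between 2.69 for C4b and 12.1 for C3ar1. With the homeostatic markers left out, 4 markers remained, their mean rose more (2.06 and 4.35 times), and the ratios fell to between 1.17 for C3 and 2.76 for C3ar1 in aging and between 1.53 for C4b and 6.73 for C3ar1 in ALS. The groups then did not overlap for the same 5 members in aging and for 8 of 9 in ALS, C1ra being the exception. These values describe relative levels and carry no test. The share of all genes whose groups do not overlap after such a division was not computed. Before it, 3.66% of genes tested in aging and 25.7% in ALS were higher without overlap.

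**Figure D4:**
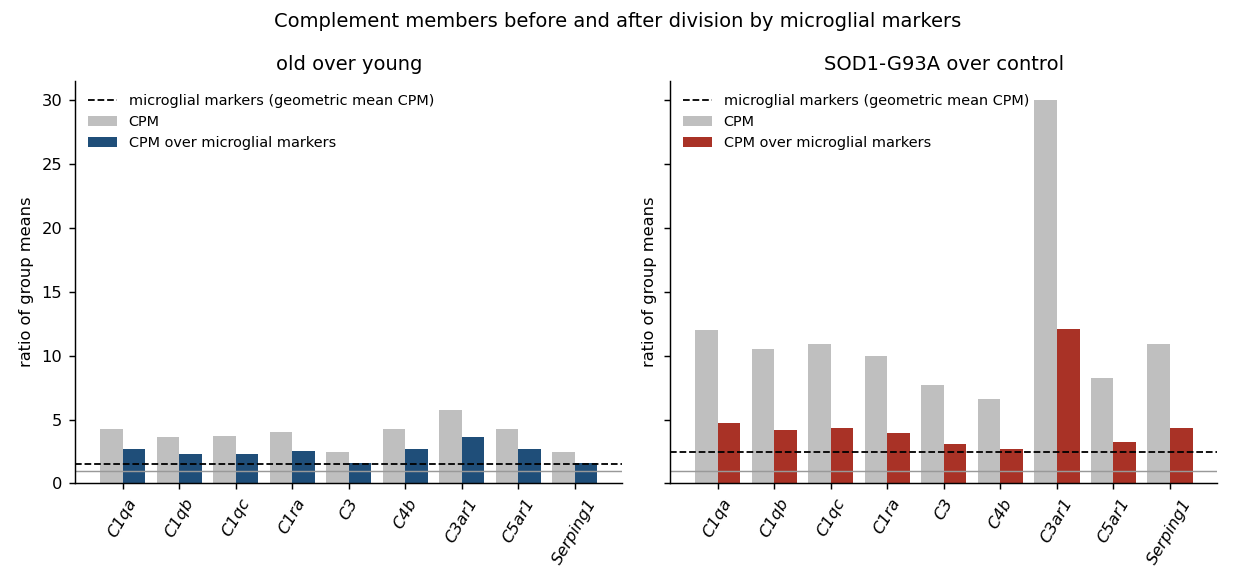
Ratio of group means of each member, in CPM (grey) and after division by the geometric mean CPM of 10 microglial markers in the same library (colour), for old over young and SOD1-G93A over control mice. The dashed line is the ratio of the marker mean itself, 1.56 and 2.44. The coloured bars stay above 1 in both comparisons and are tallest for C3ar1, at 3.67 and 12.1.

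The spread among old mice allowed the members to be compared mouse by mouse. Pearson's r and Spearman's rho of log2 CPM with C1qa were computed within each age group (n = 8, exact permutation test, two-sided, 16 relations with Benjamini-Hochberg adjustment). In old mice C1qb (r = 0.97, exact permutation adjusted p = 0.00734, rho = 0.95, adjusted p = 0.0179) and C1qc (r = 0.97, adjusted p = 0.00734, rho = 0.93, adjusted p = 0.0179) went with C1qa. Without the 2 mice farthest from the median of C1qa, old library 6 among them, r was 0.85 and 0.83. C3 had an r of 0.90 (exact permutation adjusted p = 0.0294) and a rho of 0.81 (adjusted p = 0.116), and its r of 0.57 without those 2 mice means that the relation rests largely on them. For C4b (r = 0.88), Serping1 (0.83) and C3ar1 (0.74) the exact permutation adjusted p was 0.0884 each, and C1ra (0.48) and C5ar1 (-0.09) did not pass either. In young mice r ran from -0.31 for C4b to 0.56 for C1qc and none of the 8 relations passed. The range of C1qa was much narrower in young mice, so r in young and old mice is not on an equal footing, and the difference was not tested.

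**Figure D5:**
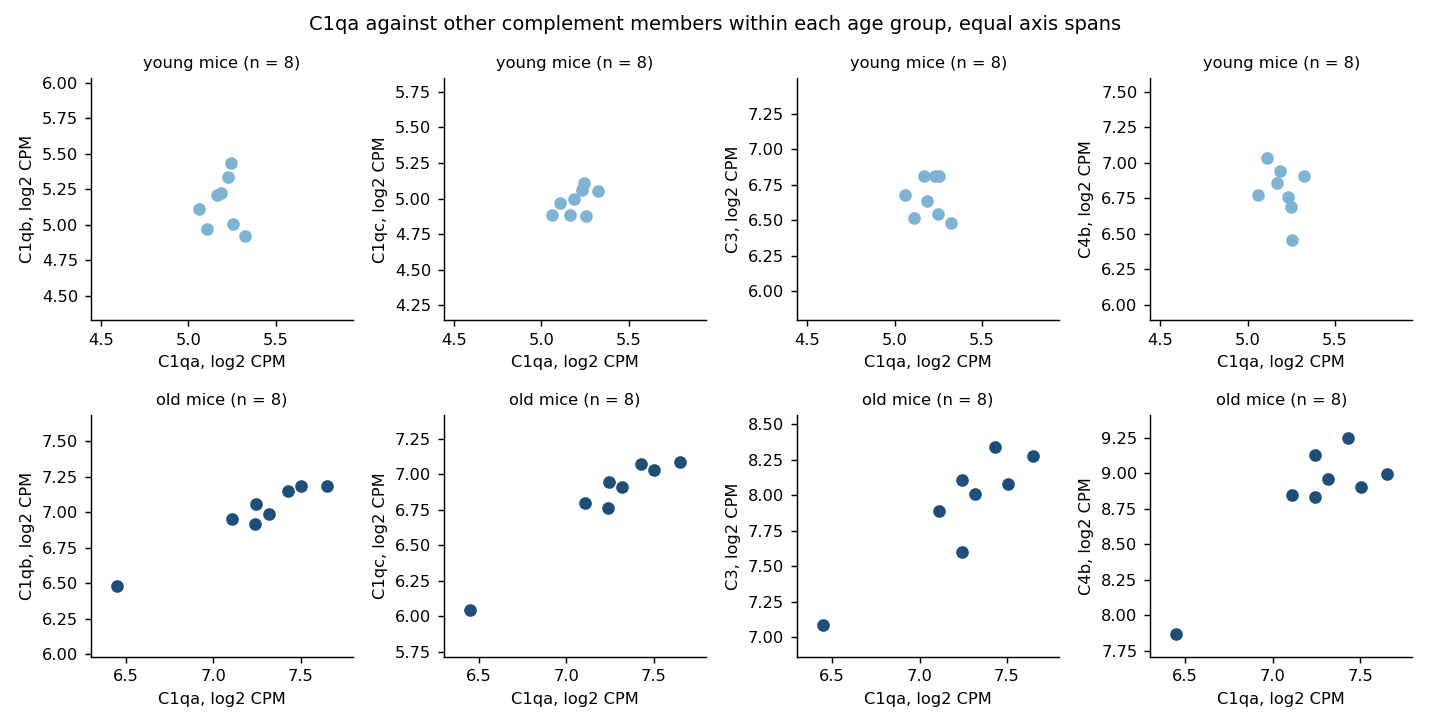
Log2 CPM of C1qb, C1qc, C3 and C4b against C1qa in young (top) and old (bottom) mice, 1 point per mouse, with equal axis spans within each gene. In old mice C1qb and C1qc rise with C1qa (r = 0.97 each) and 1 mouse lies at the low end of every panel. In young mice the points form a narrow cloud.

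The genes most like the members were sought by the correlation of deviations from the group mean over the 16 aging libraries, as a description over libraries that share depth and tissue make-up. For the mean of the C1q chains they were Tyrobp (r = 0.93), Ctsd (0.93), Lyz2 (0.93), Stk11ip (0.92) and Grn (0.91). Tyrobp encodes an adaptor of myeloid receptors, Ctsd a lysosomal protease, Lyz2 lysozyme and Grn progranulin. All but Stk11ip were called higher in both comparisons, with aging log2 fold changes of 2.27 for Tyrobp, 1.5 for Ctsd, 4.84 for Lyz2 and 1.13 for Grn and ALS values of 3.87, 3.19, 6.24 and 2.99. For C3 they were Rapgef3 (0.91), Tyrobp (0.89), Apoe (0.89), Gfap (0.89) and Pamr1 (0.89), and for C4b they were Fam71e1 (0.93), Cd9 (0.91), Plcg2 (0.90), Gna13 (0.89) and Ctnnb1 (0.89). Several of these, such as Stk11ip, Rapgef3, Fam71e1, Gna13 and Ctnnb1, had aging log2 fold changes between -0.00 and 0.12. For these genes a high r stood beside almost no change between the age groups. The r values include old library 6 and were not computed again without it, so how far they rest on this 1 library is not known.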

How the data were processed

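Whole spinal cord RNA from 22 mice was sequenced. Per the paper's methods, the authors aligned reads to mm10 with STAR, estimated gene abundance with RSEM and used SAMtools 1.3. The authors deposited expected counts from RSEM, not normalized, and, in a second table, log2 values of FPKM plus a pseudocount of 1. Strand use in counting is not given in the sources used here. Columns name the group and a library, with 0 columns left unmapped. Expected counts were rounded. Per comparison, genes were filtered (filterByExpr, minimum count 10, minimum total 15), scaled by TMM and tested with edgeR 4.0.16 (quasi-likelihood, R 4.3.3) with Benjamini-Hochberg adjustment over all genes. Calls needed an adjusted p under 0.05 and a log2 fold change beyond 1. Standard errors were derived from the quasi-likelihood F. FPKM was computed back from the log2 table. The fits were tested on simulated data. Alternatives were DESeq2 1.42.0, RLE factors, other count filters, one fit of all groups, limma 3.58.1 on log2(FPKM + 1), C1rb counts added to C1ra, other microglial markers and each library left out. No 2 libraries of a group were alike within sampling noise (chi-square over its degrees of freedom at least 2.52 in 62 pairs). Positions and transcripts are from GENCODE on GRCm38, and promoters from RefSeq. The genes named are the 9 members, the listed complement genes past both thresholds (1 is not reported here), 5 genes most like each of C1q, C3 and C4b, marker lists and Sod1. The regulators that passed the adjusted p alone, Cfp, Cd93, C2, C8g, Hc and the single markers were named after their values were seen. The members and lists were chosen with earlier results of these data known. Sex was not a covariate because it is not given for each library.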

Additional observations from a re-analysis of the deposited data

Results flagged for a closer look

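For 4 of the members, 1 old library lay far from the other 7, where 18 groups of 8 libraries were examined and chance flags about 1 in 20. The lowest old value was 89.2 CPM for C1qb (the next was 121), 65.7 CPM for C1qc (next 108) and 233 CPM for C4b (next 456), all in old library 6. The highest old value of C5ar1 was 5.42 CPM, in old library 7, with the next at 3.50.

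By the interaction test, the log2 fold change in ALS exceeded that in aging by 1.47 for C1qa, 1.53 for C1qb, 1.54 for C1qc, 1.61 for C3, 2.38 for C3ar1 and 2.12 for Serping1. Kit, age and sex cannot be told apart from the experiment in these differences.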

How the results depend on the processing

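The members kept their direction in all 320 alternative log2 fold changes and their call in 318, the exceptions being C1ra and C5ar1 in aging on log2(FPKM + 1). With at least 10 counts in every library both genes had too few counts to be tested, so 7 members were called in either comparison. Of the other complement genes, 3 in aging and 4 in ALS were lower at an adjusted p under 0.05. On log2(FPKM + 1) this was 1 in both, and with each library left out it ranged from 2 to 4 in aging and from 1 to 5 in ALS, with 1 without SOD1-G93A library 3, 2 without control library 1 and 1 without control library 2. The cause was not tested. On log2(FPKM + 1) C1s1 in aging was 0.72, and the relation to C1qa changed sign for C5ar1 in old mice (r = 0.0535, from -0.09) and for C4b in young mice (r = 0.308, from -0.31), neither past the test. The number of members with the larger change in ALS was 6 to 8 when single libraries were left out. Leaving out old or young libraries there was chosen after seeing the data. No paired analysis was possible because the columns carry no replicate numbers. Adding C4a to C4b was not run, since C4a was not analysed here. C1ra and C5ar1 had few counts in young and control mice, which limits their precision, and 3 mice a group limit the ALS comparison.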
